A study of Homo sapiens with 15 samples.

Results

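The EMT transcription factors are the small set of DNA-binding proteins that switch epithelial cells towards a mesenchymal state, the epithelial to mesenchymal transition (EMT). Of the 7 factors asked for by gene symbol (ZEB1, ZEB2, SNAI1, SNAI2, TWIST1, TWIST2 and PRRX1), 6 were found among the 12995 genes of both expression tables, and PRRX1 was not analysed here. RNA was measured by 3′ end sequencing in 15 libraries, 3 from each of 5 groups. OKF6 is a normal oral epithelial line, labelled wild type. SCC15 and SCC25 are oral cancer lines, which the study classes as mesenchymal and basal. Both cancer lines carried Cas9 and a doxycycline-inducible guide against YBX1, a DNA- and RNA-binding protein, and were sorted for GFP and mCherry. The +YBX1 cells received no doxycycline, and the -YBX1 cells received 1 µg/mL for 3 days, so doxycycline and loss of YBX1 cannot be told apart. SCC15 was cultured in DMEM containing serum, unlike SCC25 and OKF6, which were kept in serum-free keratinocyte medium. Line and medium cannot be told apart where SCC15 is compared, nor can line and the Cas9 and guide constructs where OKF6 is. The labels do not say that replicates were separate cultures, so p-values measure only the spread between these libraries.

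ZEB1 and ZEB2 are zinc finger repressors that bind E-boxes in the promoters of epithelial genes, with CDH1 (E-cadherin) the best known, and recruit CtBP co-repressors. SNAI1 and SNAI2 (Snail and Slug) are smaller zinc finger repressors of the same E-boxes, and SNAI2 is also a normal product of basal keratinocytes. TWIST1 and TWIST2 are basic helix-loop-helix factors that work as dimers with E-proteins and are held back by the ID proteins. The ZEB messages are in turn targets of the microRNAs of the miR-200 family and of miR-205, in a loop of mutual repression.

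Reads counted on genes lay between 4075290 and 6118501 per library. Values are CPM, counts per unit of library size as the authors normalised them, and 1 read was worth 0.138 to 0.226 CPM. Most of the factors lay close to this limit, so the whole reads behind each value are given. Libraries are named in the order of replicates 1, 2 and 3. OKF6 replicate 2 was the shallowest: 38 genes with at least 20 reads in both other OKF6 libraries had 0 reads there, against 0 to 12 such genes in each other library. Over the genes as a whole OKF6 replicate 1 stood furthest apart. Chi-square per degree of freedom was 80.8 and 79.3 in its pairs with replicates 2 and 3, against 26.1 between those. The squamous identity of the lines was checked on 10 keratinocyte markers. Summed, they took 27236 to 37106 CPM in OKF6 and 13123 to 24394 CPM in SCC25 +YBX1, but 5.40 to 38.2 CPM in SCC15 +YBX1, where TP63, the master regulator of squamous epithelium, had 0, 0 and 1 read. The SCC15 libraries thus nearly lacked the defining markers of oral keratinocytes. Of 10 fibroblast markers 2 could be analysed, COL1A1 and LUM, and their summed level was 11.3 to 30.2 CPM in SCC15 +YBX1, 21.9 to 97.9 CPM in SCC25 +YBX1 and 29.1 to 44.5 CPM in OKF6, where LUM was at 0. The 2 went opposite ways: COL1A1 was lower and LUM higher in SCC15 than in SCC25 (log2 change -1.57 and 3.25). LUM had 15, 2 and 13 reads in SCC15 and 0, 1 and 0 in SCC25. Of 8 leukocyte and endothelial markers 2 could be analysed, CD14 and CD68. They took 0.337 to 1.82 CPM in SCC15 +YBX1, 38.3 to 44.4 CPM in SCC25 +YBX1 and 12.0 to 29.2 CPM in OKF6. In bulk RNA, fewer cells that express a gene and less of its RNA per cell cannot be told apart.

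Which factors differ between the lines was asked of the 3 groups with YBX1 intact, with limma across all genes and Benjamini-Hochberg adjustment (threshold 0.05, two-sided). Between SCC15 and SCC25, 2 of the 6 factors were higher in SCC15, ZEB1 and ZEB2, and 2 were lower, SNAI2 and TWIST2, where 20% and 23.6% of all genes were called higher and lower. Between SCC15 and OKF6, 3 were higher (ZEB1, ZEB2 and SNAI1) and the same pair was lower, beside 26.9% and 23.4% of all genes. Between SCC25 and OKF6, 2 were higher (ZEB1 and SNAI1) and 0 lower, beside 18.9% and 11.3% of all genes. At an unadjusted p under 0.05 the same numbers of factors passed, 4, 5 and 2, beside 50.8%, 56.6% and 41.9% of all genes. The median log2 change of all genes was -0.01, 0.10 and 0.13 in these comparisons, which share libraries. With quantiles set equal, the split of all genes between SCC25 and OKF6 moved from 2450 higher of 3923 to 2006 higher of 3843. Between SCC15 and SCC25 the majority turned, from 2602 higher of 5672 to 3430 of 6197 with quantiles set equal and 3045 of 5730 with equal library medians, while the 4 factors called there kept their direction.

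**Figure D1:**
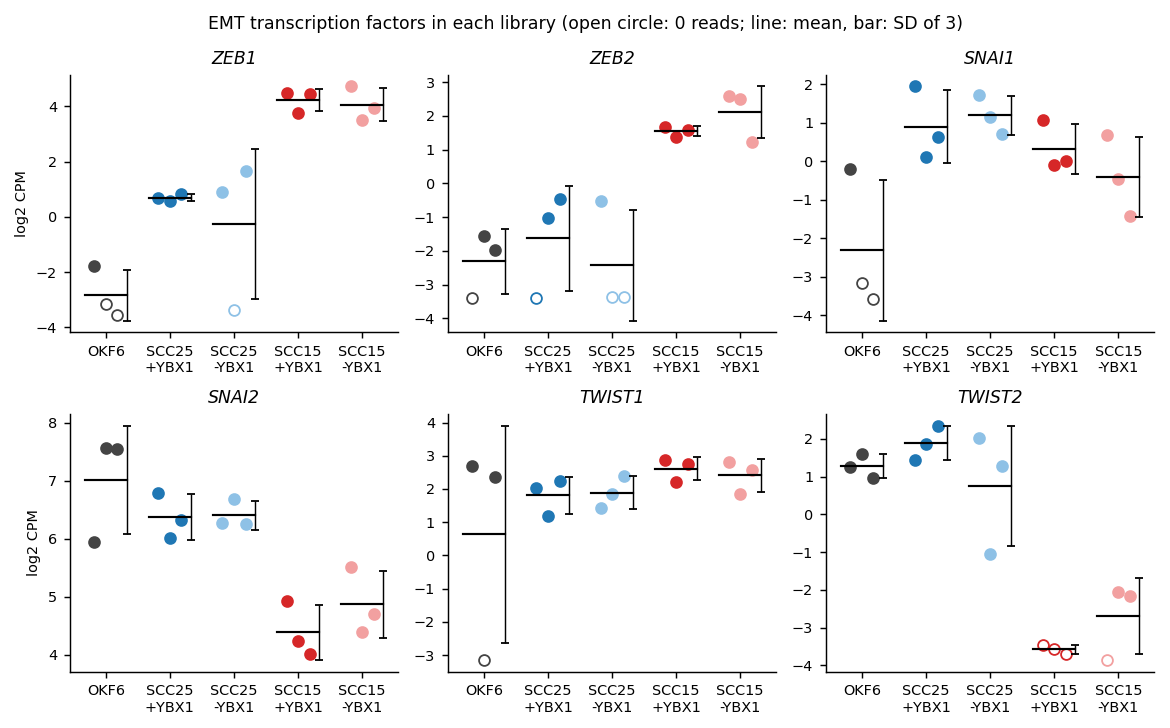
Level of each factor in log2 CPM (y axis) in every library of the 5 groups (x axis). Filled circles are libraries with at least 1 read, open circles libraries with 0 reads, the black line is the mean and the bar the SD of 3 libraries; ZEB1 and ZEB2 stand highest in both SCC15 groups, where SNAI2 and TWIST2 stand lowest.

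ZEB1 (ENSG00000148516; hg38 chr10:31318495-31529814, plus strand, 9 exons) had 122, 81 and 141 reads in SCC15 +YBX1, 8, 7 and 8 in SCC25 +YBX1, and 1, 0 and 0 in OKF6. All 3 SCC15 libraries lay above all others, and each SCC25 library lay above each OKF6 library. The mean level was 19.2 ± 4.80 CPM in SCC15, 1.52 ± 0.143 CPM in SCC25 and 0.0639 ± 0.111 CPM in OKF6 (SD, n = 3). The log2 change was 3.55 ± 0.56 (SE) between SCC15 and SCC25 (limma, adjusted p = 0.000431), and on pooled reads the ratio was 12.7 (95% interval 8.32 to 20.3, counting error only). Against the single read of OKF6, the pooled ratio was 299 (53.4 to 11853) for SCC15 and 23.6 (3.83 to 971) for SCC25, with adjusted p-values of 2.17e-06 and 0.00107 by limma. The fitted log2 change between SCC25 and OKF6 was 3.53, and it was 1.87 with quantiles set equal and 1.17 on a log2(CPM + 1) scale, still past the threshold in both. So ZEB1 was ordered SCC15, SCC25, OKF6, and no neighbours in that order overlapped. The antisense gene ZEB1-AS1, which overlaps the start of ZEB1, had 8, 6 and 22 reads in SCC15 and 11, 9 and 10 in SCC25 and did not pass the test (adjusted p = 0.799 by limma).

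ZEB2 (ENSG00000169554; hg38 chr2:144364364-144521057, minus strand, 10 exons) had 17, 15 and 19 reads in SCC15 +YBX1, 0, 2 and 3 in SCC25 +YBX1, and 0, 1 and 1 in OKF6. The SCC15 libraries were again all above the rest, whereas SCC25 and OKF6 overlapped. Its mean level was 2.85 ± 0.291 CPM in SCC15, against 0.339 ± 0.315 CPM in SCC25 and 0.131 ± 0.117 CPM in OKF6 (SD, n = 3). The log2 change was 3.18 ± 0.78 against SCC25 and 3.86 ± 0.78 against OKF6 (limma, adjusted p = 0.00741 and 0.00188). Pooled reads gave ratios of 8.66 (3.48 to 27.8) and 22.2 (5.83 to 188). Between SCC25 and OKF6, where both lines held 5 reads or fewer in all, ZEB2 did not pass the test, with a 95% interval of the log2 difference from -1.06 to 2.42.

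Matches in the 3′ UTRs of the ZEB messages are shown here because the host RNA of a microRNA known to target them differed between the lines. MIR205HG (hg38 chr1:209428817-209432848, plus strand) holds the miR-205 hairpin at chr1:209432133-209432242. It had 3084, 3731 and 3018 reads in OKF6 and 3498, 3816 and 2689 in SCC25 +YBX1, but 1, 0 and 5 in SCC15 +YBX1, a log2 change of -11.24 ± 0.63 against SCC25 (limma, adjusted p = 3.60e-07). MIR205HG is the spliced host RNA, and mature miR-205 was not measured by this assay. The host gene of miR-200c and miR-141 was not analysed here. Mature sequences from RefSeq (GRCh38.p14) are printed 5′ to 3′ with the seed, bases 2 to 8, in capitals. miR-200b and miR-429 share the seed of miR-200c, and miR-200a that of miR-141.
miR-205-5p: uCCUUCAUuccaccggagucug
miR-200c-3p: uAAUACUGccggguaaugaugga
miR-141-3p: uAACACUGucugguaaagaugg

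In the canonical 3′ UTR of ZEB1 (2540 bases, GENCODE 44), the exact complement of the miR-205 seed occurred 1 time, that of miR-200c 6 times and that of miR-141 3 times. In the 3′ UTR of ZEB2 (5370 bases), the counts were 0, 5 and 4. Among 7567 3′ UTRs of 0.5 to 2 times the length of that of ZEB1, 18.1% held a miR-205 match and 25.45% a miR-200c match, with a mean of 0.316 miR-200c matches each. For the length of ZEB2 (4089 UTRs) 41.2% held a miR-200c match, with a mean of 0.572. SNAI1, TWIST1 and TWIST2, with shorter 3′ UTRs of 706 to 830 bases, held 0 matches to any of the 3 seeds. Only 5.07% to 10.5% of 3′ UTRs of similar length held a match to a given seed, so 0 is the usual count there. The 3′ UTR of SNAI2 was not searched here. One match of each kind in ZEB1 or ZEB2 is given as DNA of the message strand, with the seed match in capitals. A match is a description of the sequence and not a measured site.
ZEB1 with miR-205, chr10:31528071-31528092, plus strand: tgtggtaacatATGAAGGatat
ZEB1 with miR-200c, chr10:31527622-31527643, plus strand: ttttatcttatCAGTATTatca
ZEB2 with miR-200c, chr2:144388986-144389007, minus strand: ctacaatgcatCAGTATTatga
ZEB2 with miR-141, chr2:144389233-144389254, minus strand: aaaattttgtaCAGTGTTaagg

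SNAI2 (ENSG00000019549; hg38 chr8:48917598-48921740, minus strand, 3 exons) ran the other way. It had 166, 111 and 104 reads in SCC15 +YBX1, 590, 328 and 384 in SCC25 +YBX1, and 319, 842 and 1101 in OKF6. Every SCC15 library lay below every SCC25 and OKF6 library, while SCC25 and OKF6 overlapped because OKF6 replicate 1 was at 61.1 CPM against 190 and 186 CPM in the other OKF6 libraries. The mean level was 21.7 ± 7.55 CPM in SCC15, 85.1 ± 23.6 CPM in SCC25 and 146 ± 73.2 CPM in OKF6 (SD, n = 3). In SCC15 the level fell by 1.99 on the log2 scale (SE 0.43) against SCC25 and by 2.63 against OKF6 (limma, adjusted p = 0.00334 and 0.00042). Between SCC25 and OKF6 the log2 difference was -0.64 with a 95% interval from -1.58 to 0.31, and it passed the test (-1.18, adjusted p = 0.00942) once OKF6 replicate 1 was left out.

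SNAI1 (ENSG00000124216; hg38 chr20:49982980-49988886, plus strand, 3 exons) was low in every line. Its reads were 11, 5 and 6 in SCC15 +YBX1, 20, 5 and 7 in SCC25 +YBX1, and 4, 0 and 0 in OKF6. The cancer lines overlapped each other, with a log2 difference of -0.58 and a 95% interval from -2.53 to 1.37 (SCC15 minus SCC25). Both lay above the OKF6 libraries, by a log2 change of 2.63 ± 0.88 in SCC15 and 3.21 ± 0.88 in SCC25 (limma, adjusted p = 0.0287 and 0.0193). On pooled reads the ratios to OKF6 were 4.78 (1.62 to 19.1) and 8.20 (2.91 to 31.9). The SCC15 call was lost without OKF6 replicate 2 or 3 or any 1 of the SCC15 libraries (adjusted p from 0.0506 to 0.1001), and the SCC25 call without OKF6 replicate 2 or 3 or SCC25 replicate 1 (0.0556 to 0.0789). With quantiles set equal neither passed (adjusted p = 0.353 and 0.152), and on a log2(CPM + 1) scale the SCC15 call was also lost (adjusted p = 0.0882).

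TWIST2 (ENSG00000233608; hg38 chr2:238848032-238910534, plus strand, 2 exons) had 0 reads in all 3 SCC15 +YBX1 libraries, against 14, 18 and 24 in SCC25 +YBX1 and 12, 13 and 11 in OKF6. With 3 reads over the group as the floor for 0, TWIST2 was at least 21.99-fold lower in SCC15 than in SCC25 and at least 13.8-fold lower than in OKF6 (limma, adjusted p = 6.29e-06 and 1.12e-05). SCC25 and OKF6, at 3.72 ± 1.19 and 2.36 ± 0.541 CPM, overlapped, and their log2 difference was 0.61 (95% interval -0.45 to 1.68). SCC15 was thus the line without detectable TWIST2 at this depth.

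TWIST1 (ENSG00000122691; hg38 chr7:19020991-19117636, minus strand, 2 exons) had 40, 27 and 43 reads in SCC15 +YBX1, 21, 11 and 22 in SCC25 +YBX1, and 33, 0 and 30 in OKF6. The 0 came from OKF6 replicate 2, the library with 38 such genes. No comparison of TWIST1 passed the test: the log2 difference was 0.81 (95% interval -1.96 to 3.57) between SCC15 and SCC25, 1.98 (-0.79 to 4.75) between SCC15 and OKF6, and 1.17 (-1.59 to 3.94) between SCC25 and OKF6. Without OKF6 replicate 2 the last turned to -0.72 (adjusted p = 0.266 by limma) and the difference between SCC15 and OKF6 went to 0.091 (adjusted p = 0.887 by limma), while without OKF6 replicate 1 the latter was 3.01 (adjusted p = 0.0588 by limma). TWIST1 therefore showed no order of the lines past the threshold. Its SCC15 libraries, at 4.55 to 7.28 CPM, reached above those of SCC25, at 2.17 to 4.57 CPM, and overlapped them by a single library in each line. The fit shares its spread with OKF6, where the SD was 3.28 log2 units, against 0.35 in SCC15 and 0.55 in SCC25. With any library left out, SCC15 and SCC25 still did not differ past the threshold (adjusted p at least 0.128 by limma). On pooled reads their ratio was 1.73 (1.24 to 2.44, counting error only).

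**Figure D2:**
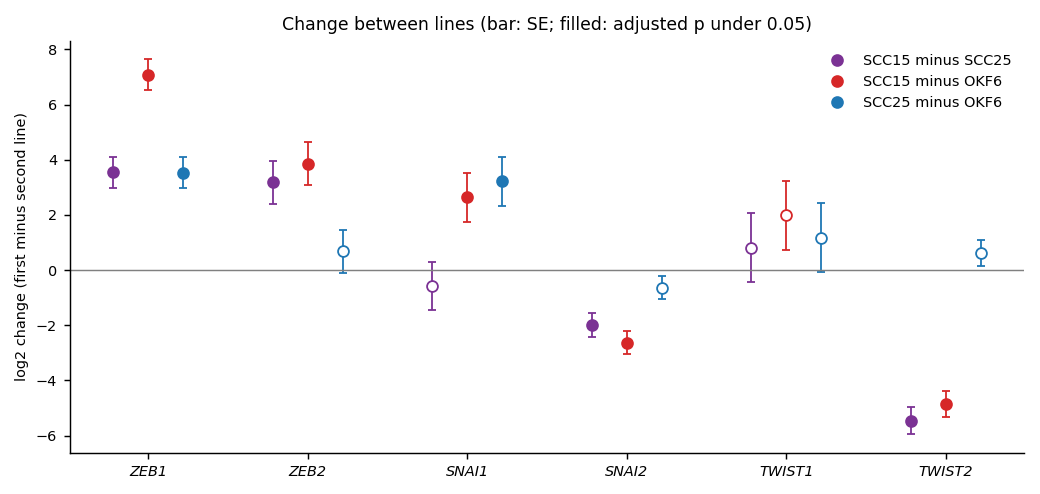
Log2 change of each factor (y axis) between the lines with YBX1 intact; points are limma estimates from 3 libraries a line, bars the SE, filled points have an adjusted p under 0.05. ZEB1 and ZEB2 lie above 0 and SNAI2 and TWIST2 below 0 in both comparisons with SCC15, and values of TWIST2 in SCC15 and of ZEB1 against OKF6 rest on groups with 0 or 1 read.

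Other EMT-promoting factors were divided. Of 17 analysed, 6 were higher and 7 lower in SCC15 than in SCC25, with a median log2 change of -0.06. For this and the lists below, 20% of all genes were called higher and 23.6% lower in that comparison. Against OKF6 the shares were 26.9% and 23.4% for SCC15, and 18.9% and 11.3% for SCC25. Setting genes at 0 in a whole line to their bound moved none of the list medians given here for SCC15 against SCC25. LEF1, a WNT effector, had 74, 69 and 115 reads in SCC15 and 0 in every SCC25 and OKF6 library, at least 73.0-fold and 74.8-fold higher. GSC, the homeobox factor goosecoid, had 20, 16 and 29 reads in SCC15 and 0 in every OKF6 library. FOSL1 and ETS1, an AP-1 subunit and an ETS factor, were lower in SCC15 than in SCC25 by log2 changes of -7.15 ± 0.51 and -5.58 ± 0.23 (limma, adjusted p = 1.38e-06 and 5.92e-08). KLF8 had 11, 16 and 15 reads in SCC25 and 0 in SCC15 and OKF6.

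PRRX2, the paralog of PRRX1, had 302, 219 and 193 reads in SCC25 +YBX1, 13, 5 and 7 in SCC15 +YBX1 and 1, 0 and 0 in OKF6. The lines did not overlap. SCC25 was 33.6-fold higher than SCC15 on pooled reads (22.6 to 52.4), with a log2 change of -5.07 ± 0.60 for SCC15 minus SCC25 (limma, adjusted p = 5.51e-05). Between SCC25 and OKF6, 5 of the 17 factors were higher and 0 lower, led by PRRX2 and KLF8, and HMGA2, a chromatin architectural protein, was also among them (log2 change 1.34).

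Among the E-proteins and ID inhibitors, the partners and antagonists of TWIST, 3 of 7 were higher and 1 was lower in SCC15 relative to SCC25. ID4 had 99, 148 and 141 reads in SCC15 against 0, 0 and 2 in SCC25, and ID2 had 562, 253 and 287 against 3, 23 and 13. The log2 change of ID2 was 4.82 ± 0.83 and that of ID3 2.23 ± 0.47 (limma, adjusted p = 0.000761 and 0.00298). TCF12, an E-protein, was lower (-1.21, adjusted p = 0.029), and the E-proteins TCF3 and TCF4 did not pass the test. Of 21 co-repressors and chromatin partners, 4 were higher and 4 lower, close to the 20% and 23.6% of all genes. AJUBA, a LIM protein that binds SNAI1, had the largest change of those called (-3.28 ± 0.34, adjusted p = 2.12e-05 by limma). CTBP1 did not pass, while CTBP2 was lower in SCC15 (-0.72, adjusted p = 0.0107). Of 20 genes for turnover of the factors, 3 were higher and 6 lower, beside the same shares of all genes. PRKD1, a kinase that phosphorylates SNAI1, had 70, 61 and 45 reads in SCC15, 2, 5 and 6 in SCC25 and 0 in OKF6. GSK3B, the kinase that marks SNAI1 for degradation, was lower in SCC15 (-2.14 ± 0.20, adjusted p = 1.01e-05 by limma).

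The epithelial regulators that oppose the factors were mostly lower in SCC15. Of 18 analysed, 16 were lower and 2 higher in SCC15 than in SCC25, with a median log2 change of -5.02 beside -0.01 for all genes, and the counts against OKF6 were again 16 and 2. ESRP1, a splicing regulator of epithelial isoforms, had 8, 0 and 3 reads in SCC15 +YBX1, 490, 421 and 347 in SCC25 +YBX1 and 1146, 712 and 889 in OKF6. GRHL2, a repressor of ZEB1, had 0, 0 and 1 read in SCC15 and 58, 81 and 57 in SCC25. OVOL1, a zinc finger repressor of the ZEB genes, had 1, 4 and 0 reads in SCC15 and 77, 74 and 37 in SCC25. FOXA1 and GATA3 went the other way and rose above SCC25 (log2 change 4.33 and 2.48, adjusted p = 0.00285 and 0.0495 by limma). Between SCC25 and OKF6, 2 were lower, GRHL3 and GRHL1, and 0 higher.

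**Figure D3:**
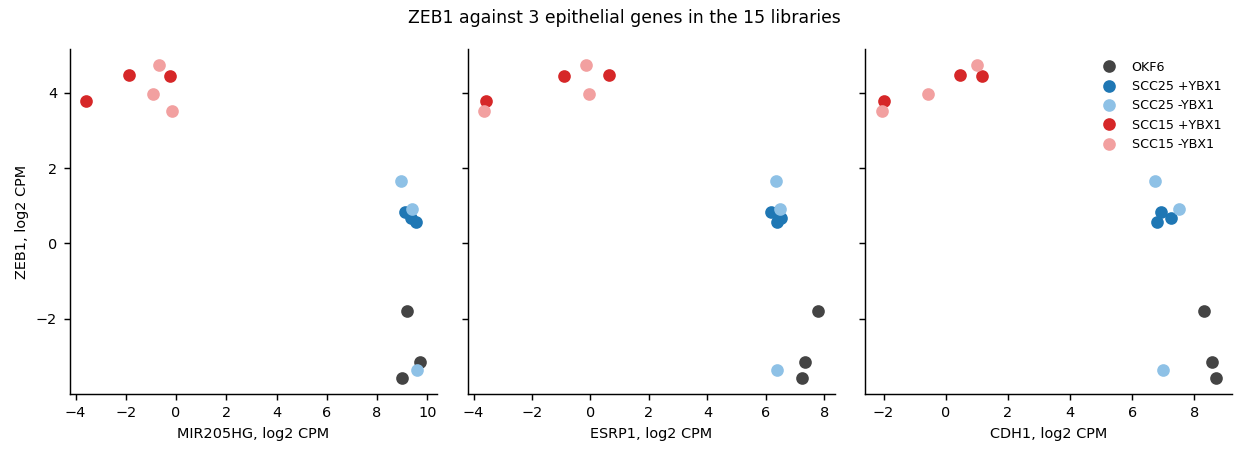
ZEB1 level (y axis, log2 CPM) against MIR205HG, ESRP1 and CDH1 (x axes, log2 CPM), 1 point per library, coloured by group. The 6 SCC15 libraries stand apart with high ZEB1 and few reads of the other gene, while OKF6 and SCC25 share high values on the x axes; the SCC25 -YBX1 library with 0 ZEB1 reads lies beside OKF6.

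The epithelial target genes lay in the same direction. Of 22 epithelial targets, 19 were lower and 0 higher in SCC15 than in SCC25 (median log2 change -4.76), and 19 and 0 against OKF6. CDH1 had 7, 1 and 14 reads in SCC15 +YBX1, 806, 570 and 586 in SCC25 +YBX1 and 1653, 1700 and 2446 in OKF6. Its log2 change was -7.12 ± 0.62 against SCC25 and -8.65 ± 0.62 against OKF6 (limma, adjusted p = 5.84e-06 and 1.11e-06), whereas SCC25 and OKF6 did not differ past the threshold (-1.53, adjusted p = 0.0873) although their libraries did not overlap. PKP3, a desmosomal plaque protein, and ST14, the epithelial protease matriptase, had 0, 0 and 3 reads each in SCC15.

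Mesenchymal targets did not move as 1 group. In SCC15 3 of 19 were higher than in SCC25 and 13 lower (median log2 change -3.11), while 7 were higher and 8 lower against OKF6. CDH2 (N-cadherin) had 195, 323 and 310 reads in SCC15, 55, 44 and 68 in SCC25 and 0 in OKF6, a log2 change of 2.05 ± 0.43 between the cancer lines (limma, adjusted p = 0.00277) and at least 240-fold and 57.1-fold more than OKF6. VIM (vimentin) was lower in SCC15 than in SCC25 (-1.38 ± 0.21, adjusted p = 0.000353 by limma) and higher than in OKF6 in both lines (1.72 and 3.10). FN1 (fibronectin) had 141, 101 and 77 reads in SCC15 against 8892, 10754 and 9649 in SCC25. TGFBI and AXL were likewise lower in SCC15 than in SCC25, with log2 changes of -10.46 and -7.63. SPARC, a matricellular protein, was higher in SCC15 than in SCC25 (6.28 ± 0.87) with 0, 4 and 6 reads in SCC25. Between SCC25 and OKF6, 7 of 19 were higher, among them COL5A1 (8.79) and MMP2 (5.96), and SPARC was the 1 lower (-8.06).

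The genes of upstream signalling were mostly lower in SCC15, 14 of 20 against SCC25 with 1 higher. Of all genes 23.6% were lower and 20% higher there. The median log2 change of the list was -1.19, beside -0.01 for all genes. TGFB2, a ligand that induces SNAI and ZEB genes, had 250, 190 and 396 reads in SCC25, 1, 3 and 0 in SCC15 and 16, 0 and 31 in OKF6. The receptors TGFBR2 and EGFR were lower in SCC15 than in SCC25 (log2 change -3.49 and -4.22, adjusted p = 1.56e-05 and 1.79e-05 by limma). BMP4 was the 1 higher, with 137, 77 and 92 reads against 18, 10 and 42, and both cancer lines lay above the 1, 0 and 0 reads of OKF6. All 10 keratinocyte markers were also lower in SCC15, with a median log2 change of -10.34 against SCC25, and their part in the counts of these lists was not tested.

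**Figure D4:**
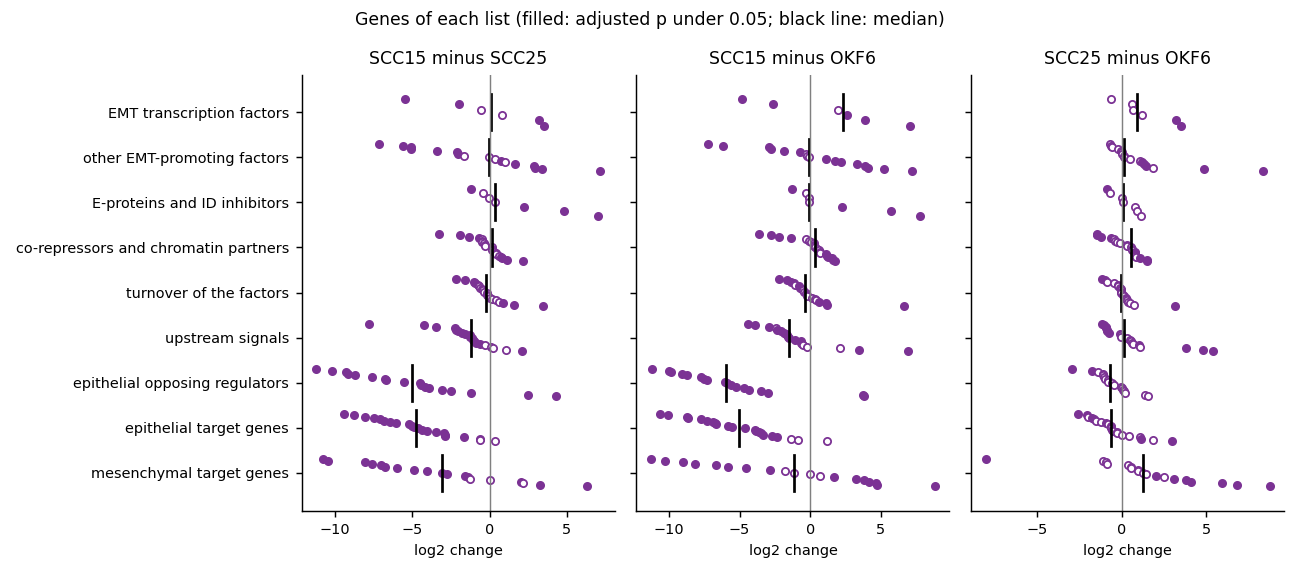
Log2 change (x axis) of each analysed gene, by list (y axis), in the 3 comparisons of the lines; filled points have an adjusted p under 0.05 (limma), the black line is the median of the list, and genes at 0 reads in a whole group are drawn at their fitted value. Epithelial regulators and targets lie mostly below 0 in both comparisons with SCC15, and mesenchymal targets lie on both sides.

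The E-box bound by the ZEB and SNAI proteins, CACCTG or CAGGTG on the other strand, was looked for in promoters from RefSeq (GRCh38.p14; 250 bases before to 50 after the start). It stood in 20.6% of 35116 promoter windows and in at least 1 window of 24.0% of the 10053 genes of the tables that have one. Only 11 of the 22 epithelial targets had a promoter sequence here, fewer than 80%, so a share over that list is void and is not given. CRB3, a polarity protein, and CLDN7, a tight junction claudin, are shown as examples from the 19 epithelial targets that were lower in SCC15 than in SCC25. The windows printed hold 5 matches each, in capitals. CLDN7 has 2 promoter windows, and the one not printed held no match. Both genes were chosen after their values were seen. Their counts are not typical, since the other windows of listed genes looked at held at most 3 matches. Matches also stood in windows of the mesenchymal targets S100A4, LOX and AXL. CRB3 had 1, 4 and 6 reads in SCC15 against 32, 25 and 12 in SCC25 (log2 change -2.86 ± 0.59, adjusted p = 0.00252 by limma), and CLDN7 6, 2 and 5 against 230, 123 and 104 (-5.24 ± 0.44, adjusted p = 4.76e-06 by limma).
CRB3, chr19:6464021-6464320, plus strand: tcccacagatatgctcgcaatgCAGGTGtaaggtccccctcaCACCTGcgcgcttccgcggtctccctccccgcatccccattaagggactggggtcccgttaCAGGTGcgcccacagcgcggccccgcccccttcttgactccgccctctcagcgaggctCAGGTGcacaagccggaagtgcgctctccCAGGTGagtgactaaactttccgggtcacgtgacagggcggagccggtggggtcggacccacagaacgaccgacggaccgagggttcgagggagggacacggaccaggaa
CLDN7, chr17:7262429-7262728, minus strand: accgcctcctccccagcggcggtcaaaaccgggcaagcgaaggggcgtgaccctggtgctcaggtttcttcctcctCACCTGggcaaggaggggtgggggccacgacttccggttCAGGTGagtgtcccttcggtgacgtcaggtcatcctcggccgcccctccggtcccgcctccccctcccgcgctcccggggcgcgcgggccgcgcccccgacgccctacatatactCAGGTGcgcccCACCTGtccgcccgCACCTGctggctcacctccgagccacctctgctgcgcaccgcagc

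Whether loss of YBX1 moves the factors was asked within each cancer line. YBX1 itself had 568, 401 and 471 reads in SCC25 +YBX1 and 193, 134 and 65 in SCC25 -YBX1, and 189, 279 and 414 in SCC15 +YBX1 against 74, 81 and 58 in SCC15 -YBX1. The groups did not overlap in either line, and the log2 change was -2.01 ± 0.35 in SCC25 and -2.15 ± 0.35 in SCC15. Over all genes, however, YBX1 did not pass (limma, adjusted p = 0.29 and 0.326). By the same test 0% of all genes were called in SCC25, 0% in SCC15 and 0% for the difference between the lines, and 0 of the 6 factors. At an unadjusted p under 0.05 there were 401, 302 and 294 genes (3.09%, 2.32% and 2.26%) and 0 factors.

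After knockdown in SCC25, ZEB1 had 9, 0 and 16 reads against 8, 7 and 8, and its log2 difference was -0.95 with a 95% interval from -2.94 to 1.04. The 0 came from replicate 2, and without that library the difference was 0.60 (adjusted p = 1.00 by limma). ZEB2 had 3, 0 and 0 reads against 0, 2 and 3. SNAI2, the factor with the most reads here, had 386, 532 and 395 against 590, 328 and 384, with a log2 difference of 0.023 (-0.64 to 0.68). SNAI1 had 16, 11 and 8 against 20, 5 and 7, and TWIST1 13, 18 and 27 against 21, 11 and 22. TWIST2 had 20, 2 and 12 reads against 14, 18 and 24, a difference of -1.14 (-2.70 to 0.42), which was -0.24 without -YBX1 replicate 2 and -1.78 without -YBX1 replicate 1. Replicate 2 of SCC25 -YBX1 also stood apart in other genes, with 25755 reads of the keratin KRT14 against 5454 and 4711 in the other libraries of its group, and 1918 reads of VIM against 4612 and 5626, and the part of this in the values of ZEB1 and TWIST2 was not tested. Only for SNAI2 and TWIST1 did these intervals stay within 1 log2 unit of 0.

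In SCC15, ZEB1 had 192, 71 and 103 reads after knockdown against 122, 81 and 141, with a log2 difference of -0.17 (-2.16 to 1.83). The fit shares its spread with SCC25, so the intervals given here are not those of SCC15 alone. For ZEB1 the SD was 2.72 log2 units in SCC25 -YBX1, against 0.39 in SCC15 +YBX1 and 0.61 in SCC15 -YBX1. ZEB2 had 43, 35 and 15 against 17, 15 and 19, so 2 of 3 libraries lay above all controls and 1 below, and the difference was 0.56 (-1.25 to 2.37). SNAI2 was higher in each same-numbered pair, by 0.59, 0.16 and 0.69 log2 units, with 330, 130 and 173 reads against 166, 111 and 104 and a difference of 0.48 (-0.18 to 1.14, adjusted p = 1.00 by limma). SNAI1 was lower in each pair, with 11, 4 and 2 reads against 11, 5 and 6 and a difference of -0.73 (-2.07 to 0.62). TWIST1 had 50, 22 and 39 against 40, 27 and 43, and per library size it too was lower in each pair, by log2 differences of -0.080, -0.36 and -0.18 (overall -0.21, 95% interval -1.10 to 0.69). TWIST2 had 0, 1 and 1 read against 0. In SCC15 the deviations of replicates 2 and 3 did not match by number. The shared sign of TWIST1 rests on the labels, since -YBX1 replicate 3, at 2.56 log2 CPM, lay above +YBX1 replicate 2, at 2.21. With replicates 2 and 3 exchanged, SNAI2 was still higher and SNAI1 still lower after knockdown in each pair. The knockdown changes of the lines were compared directly as an interaction and did not differ past the threshold for any factor, with the smallest unadjusted p of 0.0694 for TWIST2.

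**Figure D5:**
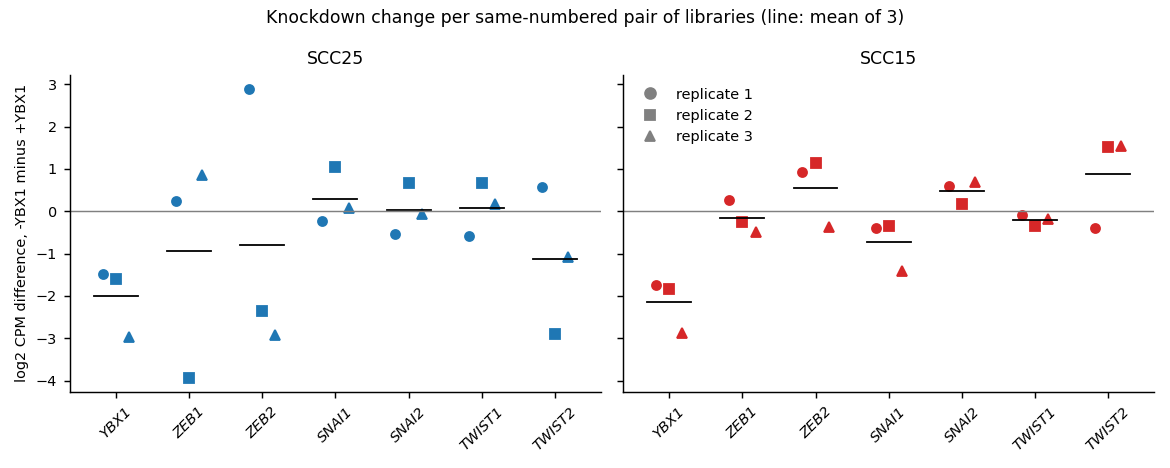
Difference in log2 CPM between same-numbered -YBX1 and +YBX1 libraries (y axis) for YBX1 and each factor (x axis) in SCC25 and SCC15; symbols are the replicate numbers and the line is the mean of 3 pairs. YBX1 lies below 0 in all 6 pairs, and the factors lie on both sides of 0 in SCC25.

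In ZEB1, ZEB2, SNAI2 and TWIST2 the cancer lines remained apart after knockdown, with no overlap of libraries. SNAI1, which overlapped before, was narrowly apart, at most 0.67 log2 CPM in SCC15 -YBX1 and at least 0.71 in SCC25 -YBX1. TWIST1 overlapped, at 1.86 to 2.80 log2 CPM in SCC15 -YBX1 and 1.42 to 2.40 in SCC25 -YBX1. The share of all genes without overlap was not counted, so this is a description and not a result about the factors. ZEB1 stood at 17.8 ± 7.82 CPM in SCC15 -YBX1 and 1.62 ± 1.55 CPM in SCC25 -YBX1, and SNAI2 at 30.8 ± 13.0 and 85.2 ± 15.5 CPM (SD, n = 3). Of the 17 other EMT-promoting factors, 18 epithelial regulators, 22 epithelial targets and 19 mesenchymal targets, 0 passed in either line. At an unadjusted p under 0.05 these lists held 0, 0, 0 and 1 genes in SCC25 and 1, 3, 1 and 0 in SCC15.

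The genes most like each factor were ranked by Pearson r of log2 CPM over the 15 libraries. Since the points share the lines, the coefficient mostly reads differences between lines, and it is given as a description. For ZEB1 they were MOCS1 (0.96), TRAF3IP2-AS1 (0.96) and PFAS (0.95), and for ZEB2 TMEM147-AS1 (0.94), DLC1 (0.92) and HIC2 (0.92). SNAI2 was most like ETHE1 (0.97), RRAS (0.95) and SETD5 (0.95), and TWIST2 most like MYO10 (0.96), CYP27B1 (0.96) and MYH9 (0.95). SNAI1 stood nearest to ELOA-AS1 (0.95), FAF1 (0.92) and LOX (0.92), and TWIST1 to RAB30-DT (0.95), AP4M1 (0.95) and RAB33B (0.94). RRAS, a RAS family GTPase, had a mean log2 CPM of 6.25 in OKF6, 4.74 in SCC25 +YBX1 and 0.96 in SCC15 +YBX1, the order of SNAI2.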

How the data were processed

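RNA from 15 libraries (5 groups of 3, from the labels) was used. Per the labels and the study's methods, QuantSeq 3′ FWD reads were trimmed with Cutadapt, aligned to hg38 with HISAT2, counted with featureCounts and normalised with limma; the strand setting and gene filter are not given in the sources used here. The authors deposited log2 CPM values, log2 of reads plus 0.5 over the normalised library size, for 12995 genes (276 without a symbol) in 2 tables that share 6 libraries. Whole reads came back for 100% of values (tolerance 0.1 read). With 4075290 to 6118501 reads per library, intervals (95%, exact conditional binomial) and floors (3 reads) cover counting error only.

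Deposited log2 values of all groups of a table were fitted with limma 3.58.1 in R 4.3.3 (variance trend, two-sided, Benjamini-Hochberg over all genes, threshold 0.05), checked on simulated reads. The factors and lists were chosen with earlier results of these data known. Named genes were every factor, YBX1, 10 fixed EMT genes where present, per list up to 4 called genes with the largest change and no overlap, and the 3 most alike genes. Some genes that this rule names are not reported here. Other genes named were chosen after their values were seen. Same-numbered libraries of a line correlated in their deviations across the knockdown (0.117 to 0.498 in SCC15, 0.135 to 0.470 in SCC25). In SCC25 each +YBX1 library was most like its same-numbered partner. In SCC15 only replicate 1 was, while +YBX1 replicates 2 and 3 were most like -YBX1 replicates 3 and 2. OKF6 and SCC25 -YBX1, of different lines, gave 0.0854 to 0.467, so same numbers are not shown to be pairs in SCC15. Alternatives were a replicate block, only the groups compared, other scalings, variance priors, pseudocount, a filter, voom weights, a stricter threshold and each library left out. Figures used matplotlib 3.10.9 in Python 3.11.15.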

Additional observations from a re-analysis of the deposited data

How the results depend on the processing

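The calls of ZEB1, ZEB2, SNAI2 and TWIST2 in both comparisons with SCC15, and of ZEB1 between SCC25 and OKF6, held under every alternative in which they were tested. Only SNAI2 passed the filter on genes above the first quartile in the table of the lines, and with it the number of factors called went from 4 to 1 between SCC15 and SCC25, from 5 to 1 between SCC15 and OKF6 and from 2 to 0 between SCC25 and OKF6. That last count was 1 with quantiles set equal and 1 at a threshold of 0.01, and 1 to 3 with a library left out, where SNAI1 was lost without OKF6 replicate 2 or 3 or SCC25 replicate 1; the cause was not tested. Quantiles set equal turned ZEB2 between SCC25 and OKF6 to -1.06. The SNAI1 call between SCC15 and OKF6 was lost with quantiles set equal and on a log2(CPM + 1) scale (0.80). On that scale, by its construction, changes of low factors shrank, ZEB2 between the cancer lines to 1.47, ZEB1 and ZEB2 between SCC15 and OKF6 to 4.10 and 1.68, and the difference between knockdowns for ZEB1 was 0.010.

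With the replicate number as a block, 4, 5 and 2 factors were called between the lines and 0 in each knockdown comparison, and no call of a factor changed. Between the 3 groups with YBX1 intact, same-numbered libraries share only a number (correlations from -0.198 to 0.264). With a library left out, uncalled differences that changed sign ranged from -0.72 to 2.20 for TWIST1 between SCC25 and OKF6; in the SCC25 knockdown from -1.91 to 0.60 for ZEB1, -0.10 to 0.81 for SNAI1, -0.16 to 0.23 for SNAI2 and -0.23 to 0.32 for TWIST1; in the SCC15 knockdown from -0.50 to 0.11 for ZEB1 and -0.41 to 0.069 for TWIST1; and between the knockdowns from -1.75 to 0.77 for ZEB1 and -0.025 to 0.52 for TWIST1. Depth limits every value against OKF6 for ZEB1, ZEB2 and SNAI1, which had 1, 2 and 4 reads over its 3 libraries, and for TWIST2 in SCC15, at 0.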
